A study of Homo sapiens with 16 samples.

Results

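The 10 genes examined here were those of the AP-1 transcription factor family, taken by symbol as FOS, FOSB, FOSL1, FOSL2, JUN, JUNB, JUND, ATF3, BATF and BATF3, that is 10 of the 28277 gene symbols listed for each of 2 human multiple myeloma cell lines. In both lines the gene KANSL2 had been repressed by CRISPR interference, in which a guide RNA brings a dead Cas9 fused to a repressor domain to a promoter, and was compared with cells carrying a non-targeting guide. The INA6 arms (a myeloma line that depends on interleukin 6) were labelled KANSL2 knockdown and nontargeting sgRNA control, with 3 messenger RNA libraries each, and the JJN3 arms (a myeloma line that grows without added cytokine) carried the same 2 labels with 3 libraries each. All 12 libraries were labelled as untreated plasma cells. The sources used here give neither the number of guides nor whether an arm was a clone or a pool, nor is it stated that replicates were separate cultures, so the spread between replicates may be technical. The family was picked with earlier results of these same comparisons known (changes of FOS and JUNB in INA6, and of FOSB and ATF3 in JJN3), so the knockdown against control values of the members are given below as a description.

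AP-1 is a dimer of basic leucine zipper (bZIP) proteins, joined by their zippers and gripping DNA with their basic regions at short palindromic sites. JUN proteins can pair with each other or with FOS proteins, whereas FOS proteins need a JUN partner. FOS, FOSB, JUN, JUNB and ATF3 are immediate early genes, whose transcripts appear within minutes of growth factor, cytokine or stress signals and decay quickly, while FOSL1 and FOSL2 respond later and JUND is present in most resting cells. BATF and BATF3 lack a transactivation domain and work in lymphoid cells together with JUN proteins and the factor IRF4, on which myeloma cells depend.

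Levels are given as rlog, DESeq2's regularised logarithm to base 2, which the authors computed for each line on its own, so levels were compared within a line only. The depth of the libraries is unknown. KANSL2 itself was at 76.4% of the control level in the INA6 knockdown arm and at 43.1% in the JJN3 knockdown arm, so the lines differ in how far the gene was repressed. Of 9 plasma cell markers, all 9 reached the minimum mean rlog of 3 in both lines. In INA6, 2 of them were higher and 6 lower after knockdown, beside 24.7% higher and 24.0% lower over all tested genes. In JJN3 5 of the 9 were higher and 1 lower, beside 25.5% of all tested genes in each direction. None of the 5 stromal markers reached the minimum, and 1 of 5 myeloid markers did in each line (not called). Of 5 B cell markers, 2 were tested in INA6 and not called, and 3 in JJN3, where 2 were higher and 1 lower. Of 5 T and NK cell markers, 3 were tested in INA6 and not called, and 2 in JJN3, where 1 was lower. As these are bulk samples, fewer cells of a kind and less RNA per cell cannot be told apart.

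Annotated promoter windows of the 5 genes on which the results turn are shown first, so that their sequences can be read beside the values. RefSeq (GRCh38.p14) windows were held for 8 of the 10 members, FOS, FOSB, FOSL2, JUN, JUNB, JUND, ATF3 and BATF. Each window covered 250 bases before and 50 after the start site, and 2 windows were held for ATF3, of which the first is shown. Which start site of ATF3 is used in these cells was not tested, and a start in use may lie outside both windows. The stretches below run 5′ to 3′ on the strand of the gene and end at the base before the start site. Capitals mark TGACGT (the core of the cyclic AMP response element, on either strand), TGACATCA (the variant element first known from JUN itself, on either strand) and TATAAA (on the strand of the gene).
FOS, chr14:75278578-75278827, plus strand: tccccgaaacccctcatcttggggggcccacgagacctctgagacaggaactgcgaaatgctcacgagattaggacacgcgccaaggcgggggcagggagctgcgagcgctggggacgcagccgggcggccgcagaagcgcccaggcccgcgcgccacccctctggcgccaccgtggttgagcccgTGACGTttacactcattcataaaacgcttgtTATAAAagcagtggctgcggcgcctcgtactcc
FOSB, chr19:45467746-45467995, plus strand: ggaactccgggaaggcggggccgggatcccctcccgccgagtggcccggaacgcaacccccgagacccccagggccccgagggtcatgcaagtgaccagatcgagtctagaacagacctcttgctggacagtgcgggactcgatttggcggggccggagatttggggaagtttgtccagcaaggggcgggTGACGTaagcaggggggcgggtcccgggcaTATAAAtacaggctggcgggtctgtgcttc
JUN, chr1:58784048-58784297, minus strand: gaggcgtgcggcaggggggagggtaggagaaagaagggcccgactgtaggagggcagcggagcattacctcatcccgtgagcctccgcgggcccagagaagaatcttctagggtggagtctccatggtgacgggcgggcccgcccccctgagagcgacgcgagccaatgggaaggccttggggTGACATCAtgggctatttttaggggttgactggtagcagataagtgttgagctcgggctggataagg
JUNB, chr19:12791236-12791485, plus strand: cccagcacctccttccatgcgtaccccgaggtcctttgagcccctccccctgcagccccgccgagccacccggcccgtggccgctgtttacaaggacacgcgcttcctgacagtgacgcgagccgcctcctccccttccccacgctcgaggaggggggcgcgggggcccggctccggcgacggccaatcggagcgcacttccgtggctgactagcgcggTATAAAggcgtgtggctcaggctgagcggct
ATF3, chr1:212565157-212565406, plus strand: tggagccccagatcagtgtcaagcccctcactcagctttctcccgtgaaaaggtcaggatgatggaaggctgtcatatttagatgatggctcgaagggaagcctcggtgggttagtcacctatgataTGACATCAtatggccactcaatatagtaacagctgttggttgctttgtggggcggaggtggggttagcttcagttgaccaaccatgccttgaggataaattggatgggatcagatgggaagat

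FOS and FOSB had the same arrangement, with TGACGT starting at position −64 and −60 from the start site (counted as 0) and TATAAA at −33 and −30. JUN and the shown ATF3 window shared TGACATCA, at −67 and −123. The second ATF3 window did not hold it and had TATAAA at −230. JUNB held TATAAA at −31 and neither of the other elements. FOSL2 had TGACGT at −66 and the AP-1 site TGACTCA at position 4, and JUND had the full element TGACGTCA (which contains TGACGT) at −200 and a separate core on the other strand at −87.

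Among 35116 RefSeq promoter windows of the same length, 7.98% held the core element TGACGT and 1.85% the full element (both searched on either strand). The variant shared by JUN and the shown ATF3 window was in 2.61% of the windows, and the TATA sequence in 7.33%. TGANTCA, the AP-1 site with any middle base, was in 7.71% of them, and among the members only in FOSL2. A STAT-type site, TTCNNNGAA, was in 7.66% and the CArG box bound by SRF in 1.29%, searched on both strands, and neither was in any of the 9 member windows. These are matches of letters only, and the elements known to lie further upstream of FOS are outside the windows.

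In INA6 FOS and all 3 JUN genes fell, FOSL1 and FOSL2 rose slightly, and FOSB, ATF3, BATF and BATF3 did not pass the threshold. Of the 10 members, all of which were tested, 4 were lower and 2 higher, beside 24.0% and 24.7% (48.6% in all) of the 12511 genes tested in that line (limma, Benjamini-Hochberg adjusted p below 0.05 over all genes). The groups did not overlap for these same 6 members, against 55.2% of all genes (27.7% higher and 27.4% lower). In JJN3 the FOS side of the family and ATF3 rose, and the JUN genes moved little. Of the 9 members tested there, 6 were higher and 2 lower, beside 25.5% of the 12282 tested genes in each direction and 51.0% in all. The groups did not overlap for the 6 that rose, against 56.1% of all genes (28.4% higher and 27.7% lower). Since the members were chosen on these comparisons, nothing is read from these counts. The median difference of the tested members was −0.05 in INA6 and 0.29 in JJN3, and that of all tested genes was 0.001 in each line. Median centring of the libraries turned the INA6 split of 3084 rises and 3000 falls into 3904 and 2400.

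**Figure D1:**
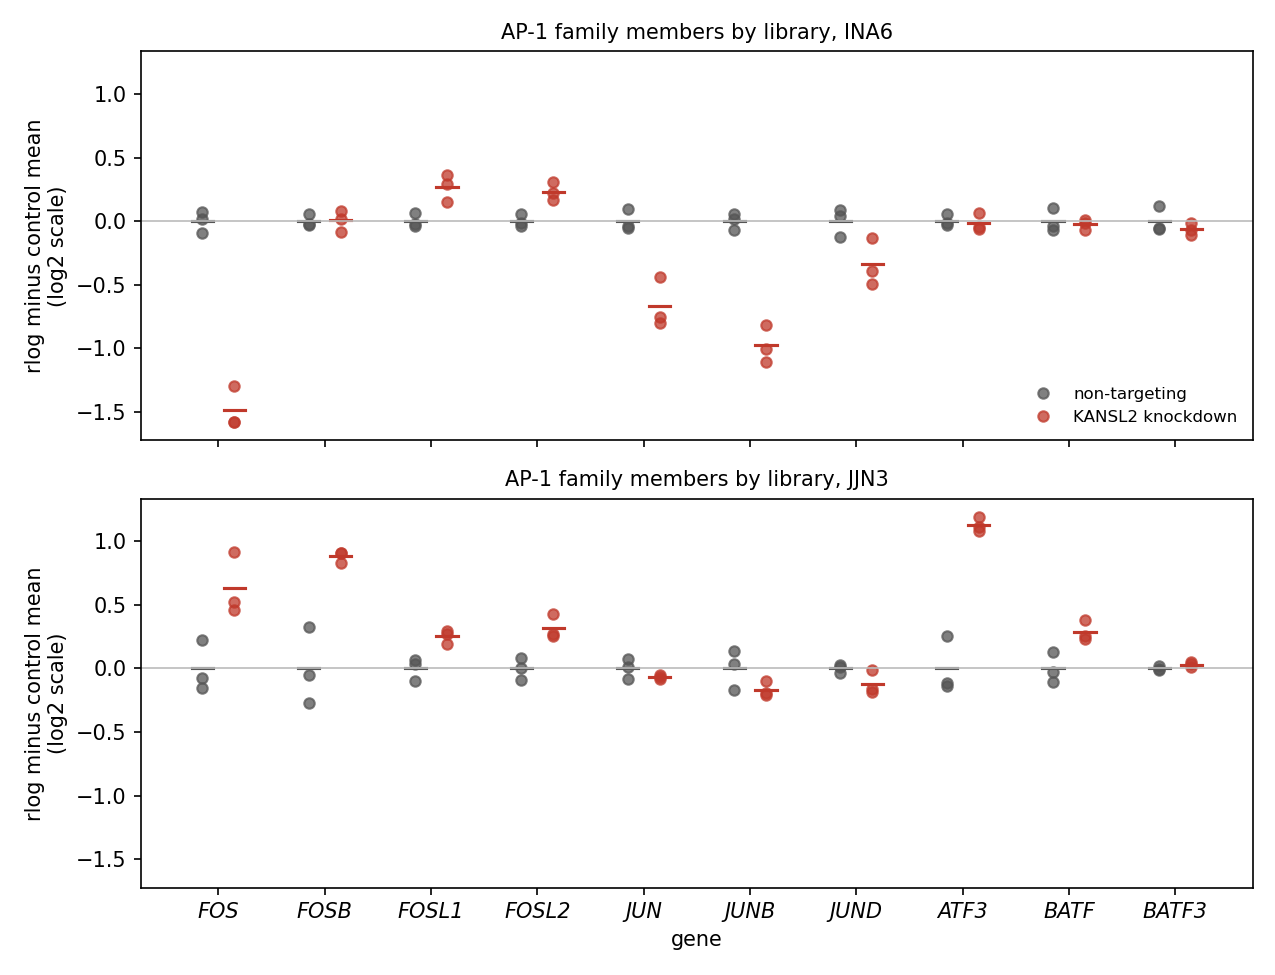
Each point is 1 library, drawn as its rlog value minus the mean of the 3 control libraries of the line (log2 scale, y axis) for the 10 members (x axis), grey for non-targeting and red for KANSL2 knockdown, with bars at the arm means. In INA6 (top) the FOS, JUN, JUNB and JUND knockdown points lie below all controls, and in JJN3 (bottom) the FOS, FOSB and ATF3 points lie above them.

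FOS, the founding partner of JUN and the member with the largest difference in INA6, lies on chromosome 14 from 75278828 to 75282230 (RefSeq, GRCh38.p14, as for all gene positions here). Its rlog values in INA6 were 11.06, 11.17 and 11.22 in the controls and 9.56, 9.57 and 9.85 in the knockdown libraries. All 3 knockdown libraries were far below all 3 controls. The arm means (± SD, n = 3) were 11.15 ± 0.083 and 9.66 ± 0.162, and the knockdown minus control value was −1.49 (SE 0.0625), which leaves 35.6% of the control level. By absolute difference FOS ranked 5 among the 12511 genes. In JJN3 the direction was the opposite, with 9.46, 9.16 and 9.08 in the controls and 10.15, 9.76 and 9.69 after knockdown. The lowest knockdown library was still above the highest control. Arm means (± SD, n = 3) were 9.23 ± 0.198 and 9.87 ± 0.246, and the knockdown minus control value was 0.63 (SE 0.0786) or 1.55-fold, with rank 72 among 12282 genes.

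FOSB, the closest relative of FOS and known for long-lasting induction in neurons, lies on chromosome 19 from 45467996 to 45475179. In INA6 it stood at 9.21, 9.21 and 9.29 in the controls and 9.25, 9.15 and 9.32 after knockdown. The arms overlapped fully, with a difference of 0.01 (SE 0.0535), in the line in which FOS fell. In JJN3 it stood at 7.64, 7.27 and 7.05 in the controls and at 8.23, 8.23 and 8.15 after knockdown. The 3 knockdown libraries lay close together above a wide control group. Control and knockdown means (± SD, n = 3) were 7.32 ± 0.302 and 8.20 ± 0.0477, so FOSB rose by 0.88 (SE 0.0825) or 1.85-fold, of rank 13 in that line.

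FOSL1 (FRA-1) and FOSL2 (FRA-2), the members of the FOS family that lack its strong transactivation domain, rose in both lines and by similar amounts. FOSL1 lies on chromosome 11 from 65892049 to 65900545. It was at 5.82, 5.73 and 5.72 in the INA6 controls and at 6.05, 5.90 and 6.12 after knockdown, a difference of 0.27 (SE 0.0658). In JJN3 it was at 6.79, 6.76 and 6.62 in the controls and at 6.99, 6.92 and 7.02 after knockdown, a difference of 0.25 (SE 0.0588). FOSL2, a factor with roles in bone and in lymphocytes, lies on chromosome 2 from 28392858 to 28417317. It stood at 9.31, 9.40 and 9.34 in the INA6 controls and at 9.57, 9.51 and 9.65 after knockdown, a difference of 0.23 (SE 0.0515). In JJN3 it stood at 6.57, 6.65 and 6.48 in the controls and at 6.84, 6.82 and 6.99 after knockdown, a difference of 0.32 (SE 0.0608). In both genes and both lines every knockdown library was above every control, with rises of 1.17-fold to 1.25-fold.

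JUNB, which restrains JUN in some settings and is needed by several lymphomas and myelomas, fell most of the 3 JUN genes in INA6. It lies on chromosome 19 from 12791486 to 12793315. Its values were 13.81, 13.76 and 13.67 in the INA6 controls and 12.74, 12.64 and 12.93 after knockdown. Every knockdown library was below every control, with control and knockdown means (± SD, n = 3) of 13.75 ± 0.0677 and 12.77 ± 0.146. The difference was −0.98 (SE 0.0548), leaving 50.8% of the control level, with rank 26 by absolute difference. In JJN3 the values were 11.86, 11.75 and 11.55 in the controls and 11.51, 11.53 and 11.62 after knockdown, where the arms overlapped. The difference there was −0.17 (SE 0.0513), and without control replicate 1 it was −0.10 and no longer called. The RefSeq span of JUNB overlaps that of HOOK2 by 865 bases, and the sources used here give no strand setting for the counting, so reads in the overlap cannot be told apart. HOOK2 was much lower, with a mean rlog of 5.41 in INA6 and 5.45 in JJN3, and differed by −0.05 (not called) and −0.24 (called).

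JUN, the founding member and the partner shared by all FOS proteins, lies on chromosome 1 from 58780791 to 58784047. In INA6 its values were 12.90, 12.88 and 13.03 in the controls and 12.18, 12.14 and 12.49 after knockdown. The groups did not overlap, and the difference was −0.67 (SE 0.065), leaving 63.1% of the control level. In JJN3 they were 11.43, 11.37 and 11.28 in the controls and 11.28, 11.31 and 11.29 after knockdown. Those arms overlapped, and the difference of −0.07 (SE 0.0419) was not called. It was −0.18 and called with quantile normalisation, and −0.11 and called without control replicate 3.

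JUND, the JUN gene expressed most steadily in resting cells, lies on chromosome 19 from 18279694 to 18281622. In INA6 it stood at 12.64, 12.60 and 12.44 in the controls and at 12.17, 12.06 and 12.42 after knockdown. The highest knockdown library lay just under the lowest control, and the difference was −0.34 (SE 0.0657), or 79.0% of the control level. In JJN3 it stood at 12.72, 12.70 and 12.65 in the controls and at 12.53, 12.51 and 12.68 after knockdown. There the arms overlapped, with a difference of −0.12 (SE 0.0422). That call was lost on leaving out control replicate 1 (−0.11) or 2 (−0.12) or the knockdown replicate 2 (−0.09), with median centring (−0.09) and with no mean-variance trend in the fit (−0.12). The 2 JJN3 falls in the JUN family became 0 without control replicate 1.

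**Figure D2:**
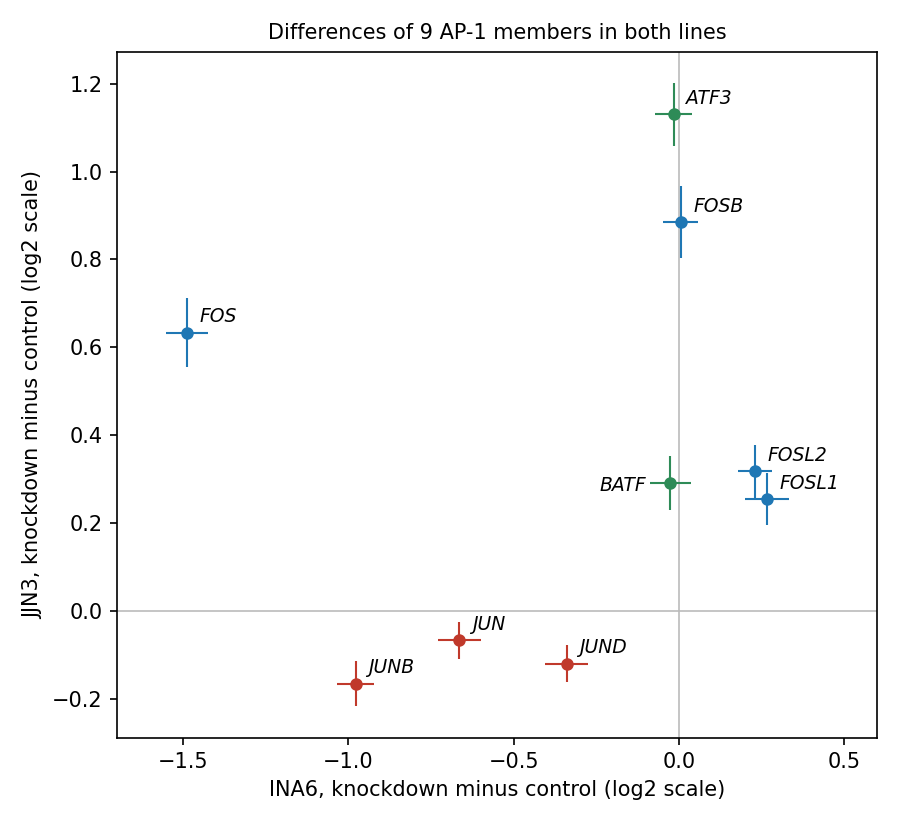
Knockdown minus control differences of the 9 members tested in both lines, INA6 on the x axis and JJN3 on the y axis (log2 scale), with bars of 1 standard error from limma and colours for FOS genes (blue), JUN genes (red) and the ATF3 and BATF genes (green). FOS lies at −1.49 and 0.63, the 3 JUN genes lie below 0 in both lines, and FOSL1 and FOSL2 above 0 in both.

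ATF3, a stress-induced bZIP factor that can repress or activate with JUN, lies on chromosome 1 from 212565407 to 212620777. It was not called in INA6, where its values were 8.46, 8.53 and 8.44 in the controls and 8.54, 8.42 and 8.43 after knockdown, with a difference of −0.02 (SE 0.0562). In JJN3 it had the largest difference of the family. Its values there were 7.06, 6.66 and 6.69 in the controls and 7.92, 8.00 and 7.89 after knockdown, with all knockdown libraries well above all controls. Control and knockdown means (± SD, n = 3) were 6.81 ± 0.222 and 7.94 ± 0.0583, so ATF3 rose by 1.13 (SE 0.0721) or 2.19-fold, with rank 6 among the tested genes.

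BATF, the partner of JUN proteins at sites shared with IRF4, lies on chromosome 14 from 75522469 to 75546992. In INA6 it was at 5.57, 5.54 and 5.71 in the controls and at 5.53, 5.59 and 5.61 after knockdown, and the arms overlapped (difference −0.03, SE 0.0622). In JJN3 it was at 7.47, 7.70 and 7.55 in the controls and at 7.83, 7.80 and 7.96 after knockdown, a difference of 0.29 (SE 0.0605) with no overlap. BATF3, known for its role in dendritic cells and in some lymphomas, lies on chromosome 1 from 212686417 to 212699840. In INA6 its values were 4.68, 4.69 and 4.87 in the controls and 4.63, 4.73 and 4.67 after knockdown, a difference of −0.06 (SE 0.0587) with overlap. In JJN3 it stood between 2.00 and 2.06 in all 6 libraries, under the minimum mean of 3, so that no test was run. Because rlog pulls genes with few reads towards their mean, differences at such low values are understated.

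The largest shift in balance was between FOS and the FOSL genes in INA6. A gap here is the rlog value of 1 member minus that of another in the same library. Its change does not depend on gene length or on a constant shift of a whole library, but quantile normalisation can alter it. The FOS minus FOSL2 gap was 1.75, 1.76 and 1.89 in the INA6 controls. It was −0.0046, 0.06 and 0.19 after knockdown, a change of −1.72. FOS minus FOSB changed by −1.49, from 1.91 to 0.42. In JJN3 these gaps changed by 0.32 and −0.25, with arms that overlapped in both. FOS minus JUNB in JJN3 went from −2.40, −2.59 and −2.47 to −1.37, −1.77 and −1.92, a change of 0.80, so FOS gained on JUNB in every JJN3 knockdown library. In INA6 the same gap changed by −0.51, from −2.60 to −3.11. The pairs were chosen after the members' values were seen.

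**Figure D3:**
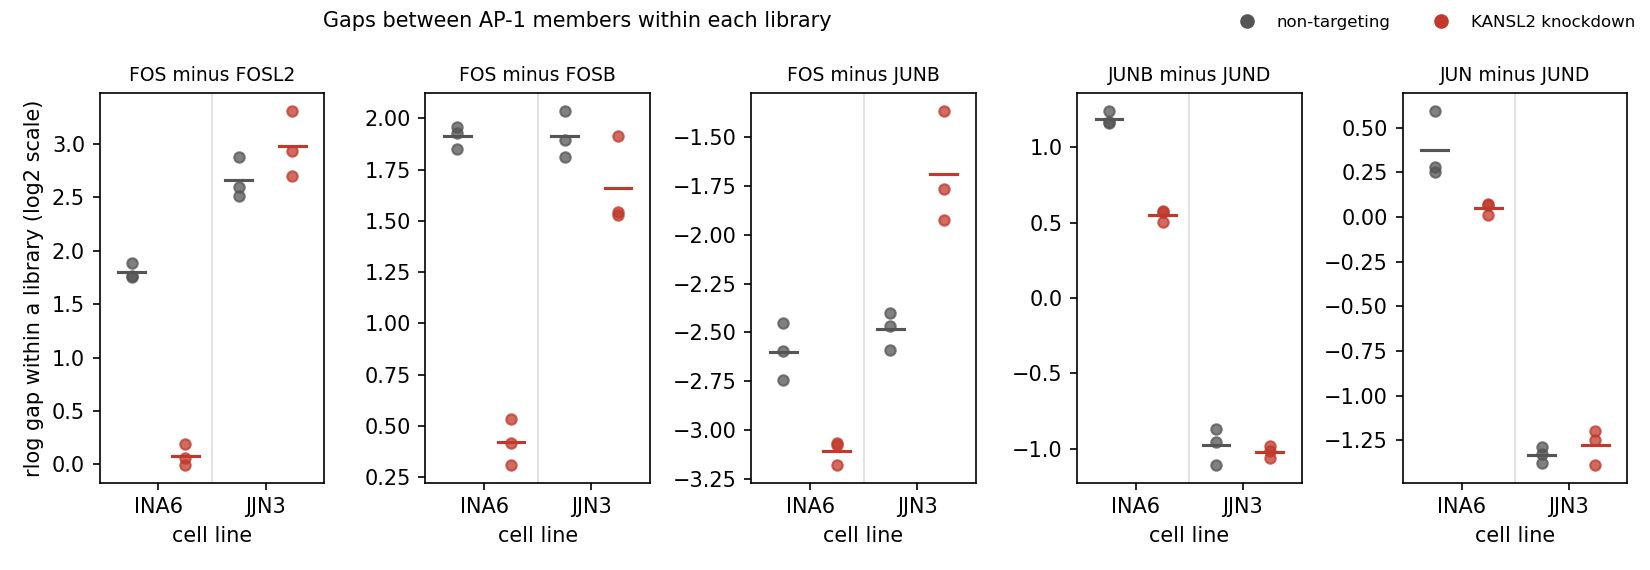
Difference between the rlog values of 2 members within the same library (log2 scale, y axis) for 5 pairs (panels), with the INA6 and JJN3 libraries side by side on the x axis, grey for non-targeting, red for KANSL2 knockdown, and bars at arm means. The FOS minus FOSL2 gap falls from 1.80 to 0.08 in INA6, and the JUNB minus JUND gap from 1.19 to 0.55, while in JJN3 the JUNB minus JUND arms overlap.

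The 3 JUN genes have no introns, so their RefSeq spans (3257, 1830 and 1929 bases for JUN, JUNB and JUND) could serve as transcript lengths, and their levels were compared per kilobase. In the INA6 controls JUNB was highest at 12.88 ± 0.0677 log2 units per kilobase (SD, n = 3), followed by JUND at 11.61 ± 0.11 and JUN at 11.23 ± 0.0815. In INA6 knockdown libraries the order was the same, at 11.90 ± 0.146, 11.27 ± 0.184 and 10.57 ± 0.195, with no overlap between neighbours. JUNB minus JUND narrowed from 1.19 to 0.55 in rlog and JUN minus JUND from 0.38 to 0.05. In JJN3 JUND was highest, at 11.75 ± 0.0355 per kilobase in the controls, above JUNB at 10.85 ± 0.157 and JUN at 9.66 ± 0.08, and the order after knockdown was again the same, at 11.62, 10.68 and 9.59. By these levels the leading JUN gene differed between the lines in both arms, with the reservation on the HOOK2 overlap given above. If reads in the overlap, 865 of the 1830 bases of JUNB, were left uncounted, JUNB would be understated. Whether the order of JUND and JUNB in JJN3 would then hold was not tested.

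The spread between replicate libraries of the same arm was also described. It comes from the libraries on which the members were chosen, and is set beside all tested genes, not genes of matched level. The residual SD of the fit, which measures that spread, had a median of 0.0626 over all tested genes in INA6 and 0.0552 in JJN3. Among the members the median was 0.0844 and 0.102, and 8 of 10 members in INA6 and 9 of 9 in JJN3 were above the median of all genes. FOS in JJN3 had a residual SD of 0.223 and FOSB one of 0.216, beyond 99.98% of the genes of that line in both cases, and ATF3 (0.162) lay beyond 99.8%. In INA6 the widest were JUND (0.151) and JUN (0.150), beyond 99.0% and 98.9%, followed by FOS (0.129) and JUNB (0.114). FOSB in INA6 was near the middle (0.0674, beyond 56.7%).

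In each line, this spread came with particular libraries. In JJN3, control replicate 1 was the highest of its arm for 7 of 9 members and control replicate 3 the lowest for 7 of 9. Over all tested genes, control replicate 1 was the highest for 32.4%. For the other immediate early genes, a list of 18 of which 16 were tested, the same library was the highest for 15 and replicate 3 the lowest for 13. The heat shock list did not show this, with 1 of 7 highest in control replicate 1. In INA6, knockdown replicate 3 was the highest of its arm for 8 of 10 members and 8 of 15 other immediate early genes, against 35.2% of all genes. Knockdown replicate 1 was the highest for the other 7 of those 15 genes. Knockdown replicate 2 was the lowest of its arm for 7 of 10 members and 11 of 15 other immediate early genes, against 3666 of all 12511 genes, and the highest for 7 of 8 heat shock genes. Leaving out the JJN3 control replicate 1 moved the differences of FOS, FOSB and ATF3 up, to 0.74, 1.05 and 1.26, and leaving out the INA6 knockdown replicate 3 moved FOS to −1.58. What set these libraries apart was not tested.

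The pathway around AP-1 was described with 9 gene lists (107 entries) covering dimer partners, activators, coactivators, targets and neighbouring programmes. In INA6 93 entries were tested, 21 of them higher and 33 lower, and in JJN3 91 were tested, 40 higher and 19 lower, to be read beside the shares of all genes given above. For the genes named from these lists as called, the limma adjusted p was at most 0.00428 in INA6 and 0.00142 in JJN3, and the standard error at most 0.107 and 0.0716, with n = 3 per arm.

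Other immediate early genes followed FOS and JUNB in INA6 and were mixed in JJN3. In INA6 11 of 15 fell and 0 rose in limma (also 0 at an unadjusted p below 0.05), with a list median of −0.77. EGR1, a zinc finger factor induced by the same kinases as FOS, was at −1.90, KLF2, a regulator of lymphocyte quiescence, at −1.35, the antiproliferative gene BTG2 at −1.22 and ZFP36, whose protein promotes decay of short-lived messages, at −0.96. With median centring or without knockdown replicate 2, 1 gene of the list was higher. In JJN3 7 of 16 rose and 4 fell (median 0.08, which was 0.16 without control replicate 1 and 0.12 without knockdown replicate 2), the orphan nuclear receptor NR4A1 by 0.72 and KLF2 by 0.65, while BTG2 was at −0.56 and ZFP36 at −0.51. EGR1 was at 0.07 in JJN3 and not called. Most chaperone genes of the heat shock list, which handling of cells can also induce, rose in both lines, 5 of 8 in INA6 (median 0.37) and 6 of 7 in JJN3 (median 0.28). In either line 0 of them were lower (also 0 at an unadjusted p below 0.05). FOS fell in INA6 and rose in JJN3, and the part of handling in any of these values was not tested. HSPH1 was at 0.79 and 0.37, HSPA8 at 0.59 and 0.38, HSP90AA1 at 0.48 and 0.40 and HSPD1 at 0.56 and 0.28. HSPA1B (−0.006), DNAJB1 (−0.04) and BAG3 (−0.02) were not called in INA6, nor was DNAJB1 in JJN3 (−0.0003). The inducible copies HSPA1A and HSPA1B are near-identical, so reads may be split between them, and HSPA1A was not tested in either line.

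**Figure D4:**
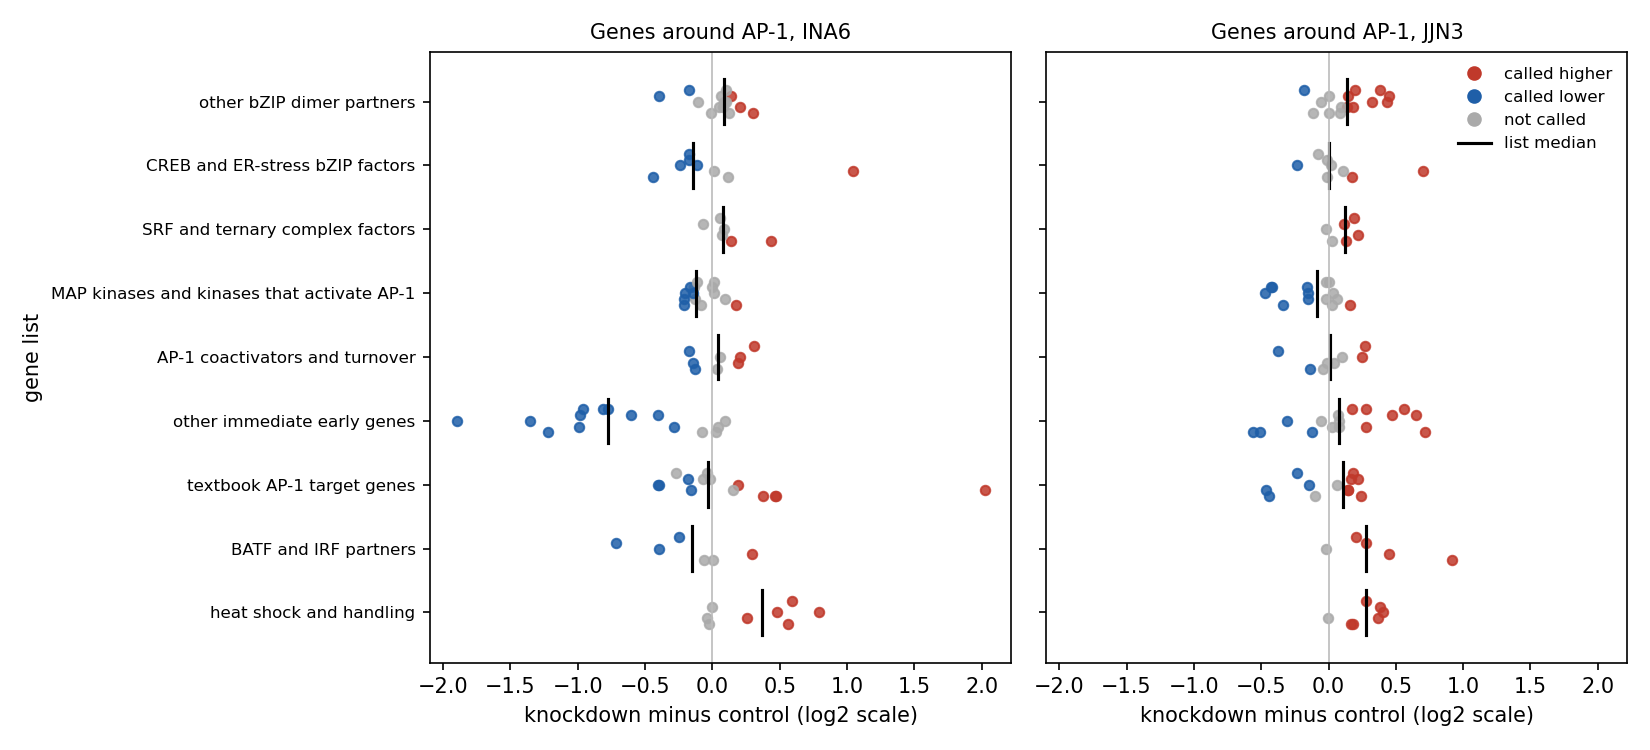
Knockdown minus control differences (log2 scale, x axis) of the tested genes of 9 lists around AP-1 (y axis) in INA6 (left) and JJN3 (right), red for genes called higher, blue for genes called lower, grey for genes not called, and black bars at list medians. Other immediate early genes have a median of −0.77 in INA6 and 0.08 in JJN3, while the median of the heat shock genes lies to the right of 0 in both.

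Of the transcription factors and kinases that switch FOS on, few moved far. SRF, which binds the FOS promoter with ternary complex factors, rose by 0.44 in INA6, where FOS fell, and was at 0.02 in JJN3 (not called). Of the 6 genes of that list 2 rose and 0 fell in INA6 (median 0.08), and 4 rose and 0 fell in JJN3 (median 0.13), among them ELK3 (0.22) and the SRF coactivator MRTFB (0.19). The count of falls was also 0 at an unadjusted p below 0.05. These counts were small and unsteady: the INA6 rises were 1 without control replicate 2 or 3 or knockdown replicate 1 or 2, and the JJN3 rises were 2 without control replicate 1 or knockdown replicate 2 or 3. Among MAP kinases and the kinases around them, falls outnumbered rises in both lines. In INA6 5 of 14 fell and 1 rose (median −0.12), and in JJN3 7 of 14 fell and 1 rose (median −0.09). MAPK3 (ERK1) was at −0.20 in INA6 and −0.47 in JJN3. MAPK9 (JNK2), which phosphorylates JUN, was at −0.21 and −0.34, the ribosomal S6 kinase gene RPS6KA1 at −0.21 in INA6, and in JJN3 MAPK7 (ERK5) was at −0.42 and its activator MAP2K5 at −0.43. The falls were 3 in INA6 without control replicate 3 and 4 in JJN3 without knockdown replicate 2. With median centring 3 of the 14 fell and 2 rose in INA6, beside 2400 falls and 3904 rises among all 12511 genes.

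Among proteins that pair with AP-1 members, JDP2, a repressor whose gene lies between FOS and BATF on chromosome 14, fell by 0.39 in INA6 and was at 0.003 in JJN3 (not called). Of 14 tested dimer partners in INA6 3 rose and 2 fell (median 0.08, which was 0.04 without knockdown replicate 1), and of 15 in JJN3 8 rose and 1 fell (median 0.13). The small MAF gene MAFG was at 0.30 in INA6. In JJN3, MAFK was at 0.44, the haem-regulated repressor BACH1 at 0.45, the B cell repressor BACH2 at 0.39 and DDIT3 (CHOP), a stress factor, at 0.32. The INA6 falls were 1 without control replicate 1 or 3 or knockdown replicate 2, the INA6 rises 5 without knockdown replicate 3, and the JJN3 rises 5 with quantile normalisation. The JJN3 falls were 2 without control replicate 3 or knockdown replicate 3. In the CREB and ER-stress group 1 of 8 rose and 5 fell in INA6 (median −0.15), and 2 rose and 1 fell in JJN3 (median 0.003). ATF5 was at 1.04 and 0.70 in the 2 lines, ATF6, which senses stress in the endoplasmic reticulum, at −0.24 in both, and CREB3L2 at −0.44 and 0.17. The INA6 falls of that group were 3 without control replicate 1 and 2 without knockdown replicate 2, and the rises 2 without knockdown replicate 3.

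The coactivator acetyltransferases EP300 and CREBBP, which FOS and JUN recruit, rose in both lines, EP300 by 0.31 and 0.27 and CREBBP by 0.21 and 0.25. COPS5 (JAB1), a JUN coactivator in the COP9 signalosome, was at 0.19 in INA6, and DET1, part of a ubiquitin ligase that degrades JUN, was at −0.38 in JJN3. Of the 8 genes of that list 3 rose and 3 fell in INA6 (median 0.04), and 2 rose and 2 fell in JJN3 (median 0.01). The falls were 0 in INA6 without control replicate 3, 1 without control replicate 2 or knockdown replicate 2, and 1 in JJN3 on leaving out control replicate 1 or 2 or the knockdown replicate 3. Without knockdown replicate 3 the INA6 median was −0.01.

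Of the genes that work with BATF in lymphoid cells, 1 of 6 rose in INA6 and 3 fell (median −0.16). IRF4 was at 0.29, PRDM1, the regulator of plasma cell fate, at −0.72, IRF8 at −0.39 and SPI1 at −0.25. In JJN3 4 of 5 rose and 0 fell (median 0.28, also 0 falls at an unadjusted p below 0.05), with the germinal centre repressor BCL6 at 0.92, IRF4 at 0.45 and PRDM1 at 0.28. PRDM1 and IRF4, which went opposite ways in INA6, are also on the list of plasma cell markers, whose median was −0.44 in INA6 and 0.20 in JJN3. The part of a shift in cell state in these values was not tested.

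Textbook AP-1 target genes did not follow the family in a single direction. In INA6 5 of 14 rose and 4 fell (median −0.03, which was 0.01 with median centring). The chemokine gene CCL2 was at 2.02, the chromatin protein gene HMGA1 at 0.47, the death-promoting BCL2L11 (BIM) at 0.47 and the angiogenic factor gene VEGFA at −0.40. In JJN3 6 of 12 rose and 4 fell (median 0.10), with BCL2L11 at 0.24, EZR, which links membrane and cytoskeleton, at 0.22, VEGFA at −0.44 and the matrix protease gene MMP9 at −0.47. Of the 20 listed targets, 6 in INA6 and 8 in JJN3 were below the minimum and not tested, with MMP1, MMP3, PLAU, IL6 and CXCL8 in both lines.

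The genes most like each leading member were found by the root mean square distance between their values in the 12 libraries, each line centred on its control mean, among 11136 other genes tested in both lines. Closest to FOS were KLF2 (distance 0.172), the lymphocyte receptor gene S1PR4 (0.326) and the circadian and hypoxia-responsive repressor gene BHLHE40 (0.337). KLF2 differed by −1.35 in INA6 and by 0.65 in JJN3, beside −1.49 and 0.63 for FOS. Closest to JUNB were the fatty acid desaturase gene FADS1 (0.0843), IER2 (0.0964) and the MAP kinase phosphatase gene DUSP1 (0.104). FOSB had BCL6 (0.132), ATF3 (0.146) and the somatostatin receptor gene SSTR2 (0.150), and ATF3 had the Notch ligand gene DLL4 (0.0878), FOSB (0.146) and BCL6 (0.152). FOSB and ATF3 were thus among the nearest of each other. The distances include the knockdown differences on which the members were chosen, so all these neighbours are a description only.

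FOS and BATF lie on the same arm of chromosome 14 with JDP2 between them, 144713 bases from FOS and 48362 from BATF, and GARIN4 lies between ATF3 and BATF3 on chromosome 1, 3697 bases from ATF3 and 59642 from BATF3. The nearest protein-coding genes on either side of each member were 18 genes. Genes that overlap a member, such as HOOK2, were not counted as neighbours. Of the 18, 12 were tested in each line, with 0 rises and 5 falls in INA6 (limma), and 2 rises and 3 falls in JJN3. Over all tested genes 24.7% rose and 24.0% fell in INA6, and 25.5% went each way in JJN3. The tested neighbours had medians of −0.08 and −0.03. RTN2, 10115 bases after FOSB, was at −0.91 in INA6 and −0.20 in JJN3, where FOSB was at 0.01 and 0.88.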

How the data were processed

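Messenger RNA was sequenced from 12 libraries of the myeloma lines INA6 and JJN3, 3 per arm. The deposited values are rlog values (the regularised log2 expression that the authors computed), 1 table per line. The authors used Trim Galore, Bowtie2, HTSeq, DESeq2 and the build hg38, per the submitters' processing notes, which give no versions. Depth is unknown, and rlog narrows differences of genes with few reads. The 4 ATAC-seq libraries were not analysed here.

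Knockdown was compared with non-targeting control within each line with limma 3.58.1 (R 4.3.3, lmFit and eBayes with a mean-variance trend) over genes with a mean rlog of at least 3. P-values were adjusted by Benjamini-Hochberg over all genes tested, with a threshold of 0.05. The fit was tested on simulated data. No 2 libraries held identical values.

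All members are named, with KANSL2 and, from each pathway list and line, up to 4 called genes with the smallest p. Genes whose call was lost under an alternative were left out (5 of 34 in INA6, 4 of 35 in JJN3). A gene that the rule names is not reported here. For FOS, JUNB, FOSB and ATF3 the 3 nearest genes are named. Other genes named (EGR1, SRF and JDP2 in JJN3, NR4A1 in INA6, HOOK2, RTN2, EGR2, SGK1, HSPA1B, DNAJB1 and BAG3) were chosen after their values were seen. The members and lists were chosen with earlier results of these data known. The alternatives were other scalings, filters, weights and trend settings, a replicate block and leaving out each library.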

Additional observations from a re-analysis of the deposited data

Results flagged for a closer look

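The 5 genes below moved in opposite directions in the 2 lines, with every knockdown library of a line on the same side of all its controls. Only the members and the genes picked from the lists were searched, so 5 is not a count over the whole lists or over all genes. Outside that search, S1PR4 and BHLHE40 were also called lower in INA6 and higher in JJN3. EGR2 (−0.99 in INA6 and 0.28 in JJN3) and SGK1 (−0.40 and 0.56), on the lists but not picked, also differed in opposite directions. Within a line, the groups did not overlap for 55.2% of all tested genes in INA6 and 56.1% in JJN3. The values given for the 5 genes are the INA6 difference minus the JJN3 difference on the log2 scale. The difference between lines was not tested: each line was fitted alone, and the 5 genes were picked for their opposite directions. FOS differed by −2.12 between the lines and KLF2 by −2. NR4A1 differed by −1.49, with −0.77 in INA6 and 0.72 in JJN3. PRDM1 differed by −1 and CREB3L2 by −0.62. KANSL2 was repressed less in INA6 than in JJN3 (76.4% and 43.1% of control), and the part of that difference in these values was not tested.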

How the results depend on the processing

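Under 13 alternatives the INA6 members kept 2 higher and 4 lower calls and the JJN3 members 6 higher calls, with no member reversed among those called. The 2 lower calls in JJN3 (JUNB and JUND) were 1 with median centring, 1 without the mean-variance trend, and 0 to 3 when each library was left out in turn. The range of FOS was −1.58 to −1.44 in INA6 and 0.49 to 0.74 in JJN3, that of JUNB in INA6 −1.06 to −0.91, that of FOSB in JJN3 0.75 to 1.05 and that of ATF3 in JJN3 1.06 to 1.26. BATF3 had no value in INA6 at a minimum mean of 5. Falls among the INA6 kinases were 3 with median centring and 8 with library weights, those among the INA6 coactivators 0 with median centring, and rises of the JJN3 SRF list 2 with quantile normalisation. List medians near 0 moved with the library left out or the scaling, those in INA6 over −0.01 to 0.12 (coactivators), 0.04 to 0.12 (SRF list) and −0.07 to 0.01 (targets), and those in JJN3 over −0.0018 to 0.04 (coactivators) and −0.0014 to 0.03 (CREB group). The cause was not tested. Replicate numbers did not pair the samples (correlations of same-numbered deviations −0.30 to −0.07 in INA6). Differently numbered INA6 pairs ran from −0.07 to 0.24, and a block on the numbers cannot take up what such pairs share. With a replicate block the members' counts were the same, while 2811 genes were higher and 2815 lower in INA6 and 3113 and 3092 in JJN3. Unknown depth leaves the precision of low genes such as BATF3 unknown.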
